A study of Mus musculus with 12 samples.

Results

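The measurement described here is the change in ventricular gene expression 3 weeks after an outflow obstruction, taken as the mean over both ventricles. It rests on 8 of the 12 arrays of the series: 4 from obstructed ventricles and 4 from sham ventricles. The obstructed arrays were 2 of right ventricle (RV) after pulmonary artery clipping (PAC) and 2 of left ventricle (LV) after transaortic constriction (TAC). The sham arrays were 2 of RV and 2 of LV. All mice were male C57BL/6, 15 weeks old, and the vessel was narrowed with a metal haemoclip. Hearts were rinsed by perfusion and cut into RV, septum and LV, and total RNA of each piece was labelled for Affymetrix whole-transcript arrays, so each value is an average over every cell of the piece. The labels state neither that arrays came from separate animals nor whether a sham RV and a sham LV came from 1 heart. The p-values therefore measure only how much these samples varied, and that variation may be technical. The other 4 arrays, of PAC RV at 1 and 6 weeks, have no left counterpart and entered none of the tests.

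An obstructed outflow tract makes the ventricle pump against a higher pressure. Heart muscle under such load is known to enlarge its cells and to turn on genes of the fetal heart, among them skeletal actin, slow myosin and natriuretic peptides. Cardiac fibroblasts respond to load by depositing collagen and other matrix, and interstitial and vascular cells can enter division.

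Values were log2 expression levels, and a change is the obstructed minus sham difference on that scale, in which 1 means a doubling. A linear model held 1 term for chamber and 1 for obstruction, so each change is the mean of the PAC minus sham difference in RV and the TAC minus sham difference in LV. It is given ± the standard error from limma, with 4 obstructed and 4 sham arrays. A gene passed at a Benjamini-Hochberg adjusted p under 0.05 over all 19938 genes. The levels of a pair of arrays of 1 group correlated at 0.995 to 0.9971 across probe sets, and array medians lay close together, the lowest at 6.34. Defining markers of ventricular muscle were high on every array: the light chain gene Myl2 lay between 13.44 and 13.66. Arrays differed in atrial markers. The mean level of 12 atrial genes was 8.62 and 9.43 on PAC RV arrays 1 and 2, against 8.09 and 7.72 in sham RV, and 8.46 and 8.40 in TAC LV, against 8.34 and 9.05 in sham LV. Bmp10, an atrial growth factor, was at 8.79 on PAC RV array 2 and between 4.28 and 4.64 on the other 7 arrays. The atrial light chain gene Myl7 was at 10.28 on PAC RV array 2 and 10.90 on sham LV array 2, and between 5.93 and 9.48 on the other 6. Of the atrial genes 0 of 12 passed for the mean of both chambers, where 1.11% of all genes did. Their median change was 0.95 in RV and −0.39 in LV, and opposite changes offset each other in that mean. In RV alone 5 of the 12 passed and were higher, where 6.63% of all genes did. Because of these atrial levels the fit was repeated without PAC RV array 2 and sham LV array 2, a setting added after the values were seen. Of all the gene lists described below and in the closing section, the load-responsive list then had 1 passing member and the mitotic list 3, and each of the other lists had 0.

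The mean change over both ventricles, called the shared change here, passed in 222 of 19938 genes (1.11%). Of these, 153 were higher in obstructed ventricles (0.767%) and 69 lower (0.346%). Changes of at least 2-fold made up 20 of these genes (0.1% of all genes), 18 of them higher and 2 lower. In all 222 genes both obstructed arrays lay beyond both sham arrays on the same side in RV and in LV. Separation of that kind was present in 8.56% of all genes upward and in 10.7% downward. The largest increases were in matrix genes (Cilp, Postn, Thbs4) and in skeletal actin Acta1, and the largest decreases were in Retnla and Inmt. The test is of the mean change, so a large change in 1 chamber can carry it, and it does not test each chamber. By limma, TAC against sham LV alone passed in 0 genes. A difference in size between the chambers counts as error. With 1 mean per group, where that difference does not count as error, 1214 genes passed, all 222 among them.

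**Figure D1:**
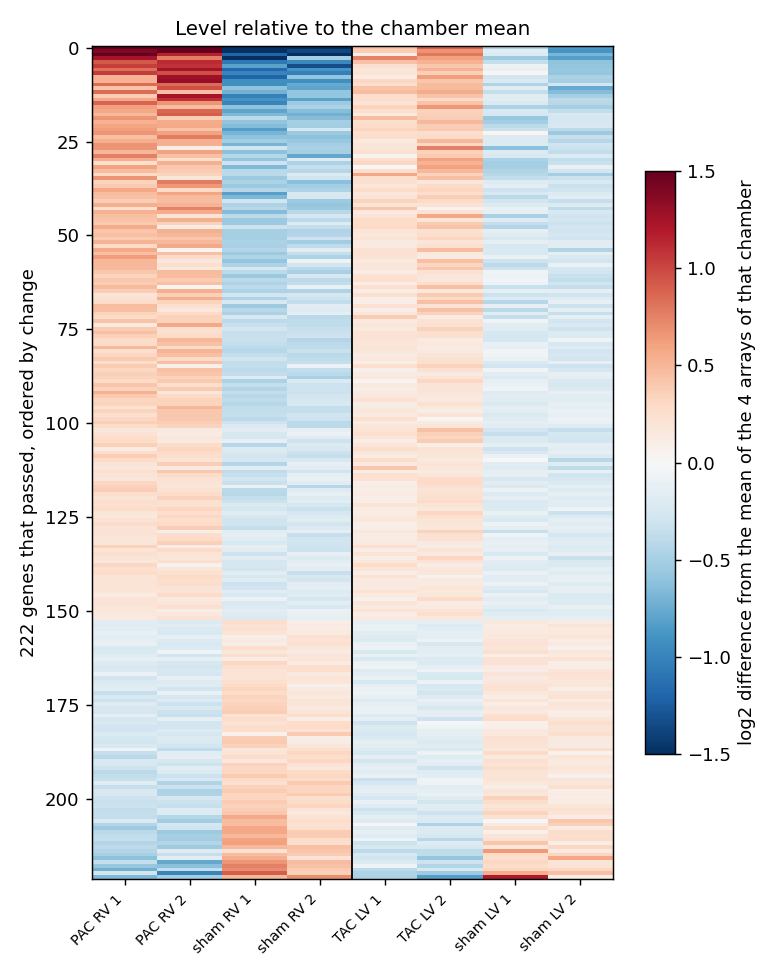
Levels of the 222 genes that passed, 1 row per gene, on the 8 arrays, each as the log2 difference from the mean of the 4 arrays of its chamber (colour scale, cut at 1.5 either way). The rows were chosen by the same comparison, so the split between obstructed and sham columns is what the test asked for, and the colours are stronger in the 4 RV columns than in the 4 LV columns.

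The number of genes that passed depended on single arrays. It was 274 without TAC LV array 1, 58 without TAC LV array 2, 580 without sham LV array 1 and 24 without sham LV array 2. On the right it was 13 without PAC RV array 1 and 67 without PAC RV array 2, and of the sham RV pair, leaving out array 1 gave 14 and leaving out array 2 gave 15. Without the 2 arrays high in atrial markers, 7 genes passed. All 222 genes kept the sign of their change in each of these fits. This was fixed in advance: their obstructed and sham arrays did not overlap in either chamber, so leaving out arrays could not turn the sign. In all 8 fits that left out 1 array, 9 genes passed. They were Top2a, Prc1, Ect2, Kif20b and Nuf2, which act in chromosome segregation and cell division, Rcan1, an inhibitor of calcineurin, Tnfrsf12a, the receptor for the cytokine TWEAK, Srpx2, a secreted protein, and Ccl11, a chemokine, which was the member that was lower. For Prc1, Ect2 and Kif20b all 4 sham values lay below 5.70, the median level of probe sets with no listed gene. For Kif20b the obstructed values did too, so signal limits these genes. Nuf2, Tnfrsf12a and Srpx2 were picked out here after their values were seen. Tnfrsf12a was at 8.99 and 8.91 in PAC RV, against 8.12 and 8.10 in sham RV, and at 9.25 and 9.49 in TAC LV, against 8.56 and 8.72 in sham LV (0.79 ± 0.08, adjusted p = 0.00656). Of these 9 genes, Top2a, Ect2, Rcan1 and Tnfrsf12a also passed without the 2 arrays high in atrial markers.

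Among genes of loaded heart muscle, those that passed were all higher under obstruction. Of 25 measured genes in a list of load-responsive cardiomyocyte genes, 11 passed and were higher and 0 were lower, where 0.767% of all genes passed upward. This list, like those below, was chosen with earlier results of these data known, so its share is not independent of them. The median change of the list was 0.42, with 0.44 in RV and 0.36 in LV, against −0.03 over all genes. Passing members encode skeletal actin (Acta1), slow myosin (Myh7), the calcineurin regulator Rcan1, myosin-binding protein C of fast muscle (Mybpc2) and proteins of the intercalated disc, Z-disc and I-band (Xirp2, Ankrd1, Ankrd23, Fhl1, Nrap, Enah), with the uridine kinase gene Uck2. With group means on all 12 arrays 3 members passed. Leaving out 1 array gave 2 to 12 members that passed, the fewest without sham RV array 1, and leaving out the 2 arrays high in atrial markers gave 1.

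Acta1 was at 12.65 and 12.18 on the PAC RV arrays, against 9.91 and 10.90 in sham RV, and at 13.29 and 13.16 in TAC LV, against 12.02 and 11.71 in sham LV. Obstructed arrays lay above the sham arrays of their chamber, and sham LV was nearer to the obstructed level than sham RV was. The change was 1.69 ± 0.22 (3.21-fold, adjusted p = 0.0159), with 2.01 in RV and 1.36 in LV, and it passed in 6 of the 8 fits without 1 array. The start of Acta1 is shown because serum response factor is known to act on this gene through CArG boxes. The window (RefSeq, GRCm38.p6, chr8:123894726-123895025, minus strand) runs from 250 bases before the start to 50 after it, with a CArG box and a TATAAA match in capitals.
Acta1: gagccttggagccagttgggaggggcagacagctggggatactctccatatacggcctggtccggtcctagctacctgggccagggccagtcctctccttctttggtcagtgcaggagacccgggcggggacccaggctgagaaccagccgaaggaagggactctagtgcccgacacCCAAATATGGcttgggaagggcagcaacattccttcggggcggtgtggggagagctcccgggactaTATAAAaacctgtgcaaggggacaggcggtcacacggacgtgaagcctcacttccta
A CArG box was found on either strand in the windows of 2 of the 11 load genes that passed, Acta1 and Fhl1 (18.2%), and in 1.63% of the 15614 measured genes with a window. Load genes that did not pass were not counted, so this share does not set passing members apart from their list. These matches describe letters, not bound sites.

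Myh7 was at 11.18 and 11.93 in PAC RV, against 9.45 and 10.06 in sham RV, and at 11.40 and 11.90 in TAC LV, against 10.99 and 10.79 in sham LV. The groups did not overlap within a chamber, and the change was 1.28 ± 0.25 (adjusted p = 0.0444). It passed in 2 of the 8 fits without 1 array, where its adjusted p reached 0.136. Rcan1, whose transcription is known to follow calcineurin activity, was at 10.55 and 10.58 in PAC RV, against 9.43 and 9.53 in sham RV, and at 10.50 and 10.72 in TAC LV, against 9.72 and 9.98 in sham LV. Its 4 obstructed arrays all lay above the sham arrays, the change was 0.92 ± 0.10 (adjusted p = 0.00823), and it passed in all 8 fits without 1 array. Mybpc2 had the larger difference on the left, at 8.64 and 8.40 in TAC LV, against 7.65 and 7.55 in sham LV, and 7.46 and 7.51 in PAC RV, against 6.77 and 6.97 in sham RV. Its change was 0.77 ± 0.09 (adjusted p = 0.0105), with 0.61 in RV and 0.92 in LV, and the difference of −0.31 ± 0.16 between them did not pass (adjusted p = 0.37). Xirp2 rose by 0.74 ± 0.09 and Fhl1 by 0.71 ± 0.10.

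The natriuretic peptide genes, usual markers of wall stress, did not pass the shared test. Nppa was at 13.05 and 13.59 in PAC RV, against 10.98 and 10.68 in sham RV, and at 12.54 and 13.16 in TAC LV, against 12.05 and 13.00 in sham LV. The left arrays overlapped, with sham LV array 2, which was also high in atrial markers, above TAC LV array 1, and the part of atrial tissue in this was not tested. The change was 1.41 ± 0.40 (adjusted p = 0.0971), and an exact permutation test of arrays within chambers, two-sided over 36 arrangements, gave p = 0.11. Nppb differed by 1.27 ± 0.29 (adjusted p = 0.0644), with 1.99 in RV and 0.56 in LV. Its arrays were at 11.64 and 11.60 in PAC RV, against 9.14 and 10.13 in sham RV, and at 12.04 and 12.35 in TAC LV, against 11.50 and 11.77 in sham LV. Nppb, Myh7, Acta1 and Myh6 each reached the smallest exact p that the 36 arrangements allow, 0.056. The adult myosin gene Myh6 lay between 13.68 and 13.71 on obstructed arrays and between 13.76 and 13.80 on sham arrays, a difference of −0.08 ± 0.06 (adjusted p = 0.432). Of Nppa, Nppb and Myh6, 2 passed with group means on the 8 arrays, where a difference between the chambers does not count as error. At least 1 natriuretic peptide gene was thus among those that passed there.

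**Figure D2:**
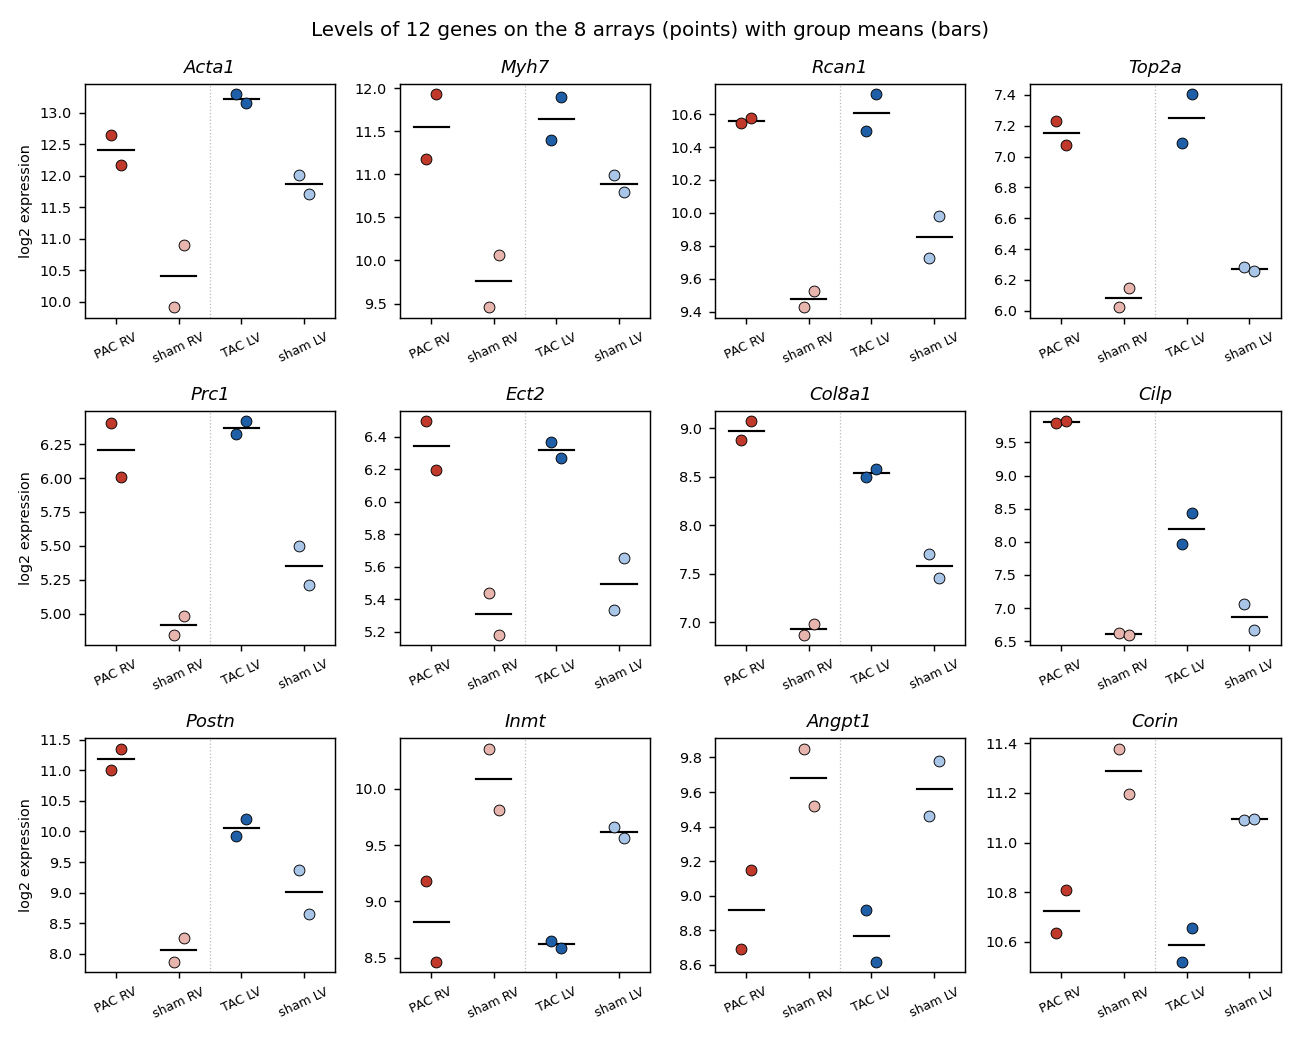
Log2 expression of 12 genes on each of the 8 arrays (points), with the mean of each pair (bars), for PAC RV, sham RV, TAC LV and sham LV from left to right; each panel has its own axis. Acta1, Myh7, Rcan1, Top2a, Prc1, Ect2, Col8a1, Cilp and Postn are higher, and Inmt, Angpt1 and Corin lower, on both obstructed arrays of each chamber.

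Among genes of mitosis and DNA replication, those that passed were all higher under obstruction. Of 50 measured members of this list 15 passed and were higher and 0 were lower, where 0.767% of all genes passed upward. The list too was chosen with earlier results of these data known. In 30 of the 50 both obstructed arrays were above both sham arrays in each chamber, which held for 8.56% of all genes. The median change was 0.35, with 0.36 in RV and 0.32 in LV. Passing members work at the spindle and its midzone (Prc1, Kif11, Kif20b, Kif23, Tpx2, Cenpe), in cytokinesis (Ect2, Anln), at the spindle checkpoint (Bub1, Bub1b), on chromosomes (Top2a, Ncapg, Mki67) and in S phase (Ccna2, Mcm6). Leaving out 1 array gave 4 to 18 passing members, the fewest without sham LV array 2 and without PAC RV array 1, and leaving out the 2 arrays high in atrial markers gave 3. With group means on all 12 arrays 3 passed. Without genes below the median level, 17 of the 50 were tested, of which 3 were higher and 1 was lower. Signal limits this list: in 7 of the 15 passing genes (Prc1, Ect2, Anln, Bub1, Ncapg, Kif20b and Cenpe) all 4 sham values lay below 5.70, the median level of probe sets with no listed gene, and in 4 of the 7 the obstructed values did too.

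Top2a, the DNA topoisomerase of dividing cells, had the smallest adjusted p of all genes. It was at 7.23 and 7.08 in PAC RV, against 6.02 and 6.15 in sham RV, and at 7.09 and 7.40 in TAC LV, against 6.28 and 6.26 in sham LV. All 4 obstructed arrays lay above all 4 sham arrays, whatever the chamber, and the change was 1.03 ± 0.08 (2.03-fold, adjusted p = 0.00413). Prc1, which bundles microtubules between separating chromosomes, was at 6.40 and 6.01 in PAC RV, against 4.85 and 4.98 in sham RV, and at 6.32 and 6.42 in TAC LV, against 5.50 and 5.21 in sham LV. Its change was 1.15 ± 0.11 (adjusted p = 0.00656), against sham levels near background. Ect2, which activates the GTPase RhoA for cytokinesis, was at 6.49 and 6.20 in PAC RV, against 5.44 and 5.18 in sham RV, and at 6.37 and 6.27 in TAC LV, against 5.34 and 5.66 in sham LV, also near background (0.93 ± 0.10, adjusted p = 0.00974). For Prc1 and Ect2 too, all 4 obstructed arrays lay above all 4 sham arrays. The other members were Anln at 0.89, Ccna2 at 0.82, Kif11 at 0.77 and Bub1 at 0.70. Between 0.36 and 0.64 lay Mki67, Tpx2, Ncapg, Kif20b, Mcm6, Cenpe, Kif23 and Bub1b, the last the smallest.

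The starts of Top2a, Prc1 and Ect2 are shown because promoters of cell cycle genes are known to carry CCAAT boxes and the TTTGAA form of the cell cycle homology element. Both motifs, on either strand, are in capitals, and the 2 do not overlap here. The windows, from RefSeq on GRCm38.p6, are chr11:99024140-99024439 (minus strand) for Top2a, chr7:80294201-80294500 (plus strand) for Prc1 and chr3:27153829-27154128 (minus strand) for Ect2.
Top2a: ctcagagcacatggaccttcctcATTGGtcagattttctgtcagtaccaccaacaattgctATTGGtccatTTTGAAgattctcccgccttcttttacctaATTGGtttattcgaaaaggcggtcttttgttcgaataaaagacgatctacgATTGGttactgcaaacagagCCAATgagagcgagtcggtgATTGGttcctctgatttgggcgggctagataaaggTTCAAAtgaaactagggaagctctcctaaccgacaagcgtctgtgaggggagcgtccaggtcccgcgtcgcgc
Prc1: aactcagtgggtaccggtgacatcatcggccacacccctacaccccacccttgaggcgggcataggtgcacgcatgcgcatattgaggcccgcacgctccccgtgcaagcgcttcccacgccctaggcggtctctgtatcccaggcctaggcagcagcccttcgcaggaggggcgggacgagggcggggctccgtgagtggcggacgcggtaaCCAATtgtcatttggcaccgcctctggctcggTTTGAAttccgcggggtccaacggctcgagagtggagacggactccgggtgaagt
Ect2: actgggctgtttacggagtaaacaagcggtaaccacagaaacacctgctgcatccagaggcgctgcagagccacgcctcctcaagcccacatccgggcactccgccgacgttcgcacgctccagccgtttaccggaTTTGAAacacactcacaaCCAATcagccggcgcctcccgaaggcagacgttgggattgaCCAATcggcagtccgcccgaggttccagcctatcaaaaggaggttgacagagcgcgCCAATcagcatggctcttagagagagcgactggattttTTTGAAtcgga
Of the 15 mitotic and replication genes that passed, 13 had a window. CCAAT was in 11 of these 13 (84.6%), against 41.7% of the 15614 measured genes with a window. TTTGAA was in 10 of them (76.9%), against 17.3%. TATAAA was in 0 of the 13, against 13.6%. Among the 128 genes with a window that passed and were higher, mitotic genes included, CCAAT was in 45.3% and TTTGAA in 28.1%. Mitotic and replication genes that did not pass were not counted, so these shares do not set passing members apart from their list. Here too the matches describe letters, not bound sites.

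Matrix genes had the largest shared increases, and their differences were larger in RV. Of 23 collagen genes 5 rose and 0 fell, with a median change of 0.51, made of 0.70 in RV and 0.14 in LV. Of 40 genes for elastic fibre and adhesive glycoproteins 6 rose and 1 fell (median 0.33, with 0.49 in RV and 0.14 in LV). Of 18 proteoglycan genes 4 rose and 0 fell (median 0.19, with 0.34 in RV and 0.05 in LV). Upward passes made up 0.767% of all genes and downward passes 0.346%. With group means on the 8 arrays 13 collagens, 25 glycoproteins and 6 proteoglycans were higher, where 708 of all 19938 genes were. In RV alone 14 collagens, 27 glycoproteins and 9 proteoglycans passed and were higher, where 6.63% of all genes did. Without 1 array at a time the risen members numbered 0 to 12 collagens, 0 to 17 glycoproteins and 0 to 6 proteoglycans. The count was 0 for all 3 lists when PAC RV array 1 or either of the sham RV arrays was left out, and also when the 2 arrays high in atrial markers were.

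Cilp, a matrix protein of cartilage and scarred heart, had the largest change of all genes that passed. It was at 9.79 and 9.82 in PAC RV, against 6.62 and 6.60 in sham RV, and at 7.97 and 8.43 in TAC LV, against 7.06 and 6.67 in sham LV. The sham levels of the chambers were close and the obstructed levels were not: the change was 2.27 ± 0.31 (4.81-fold, adjusted p = 0.0187), with 3.20 in RV and 1.33 in LV. Postn, made by activated fibroblasts, was at 11.01 and 11.35 in PAC RV, against 7.87 and 8.25 in sham RV, and at 9.92 and 10.20 in TAC LV, against 9.37 and 8.65 in sham LV. Its change was 2.09 ± 0.36 (adjusted p = 0.0336), and it passed in 2 of the 8 fits without 1 array. Thbs4, a thrombospondin, was at 9.78 and 9.28 in PAC RV, against 6.93 and 6.52 in sham RV, and at 7.31 and 8.0 in TAC LV, against 7.01 and 6.52 in sham LV (1.85 ± 0.35, adjusted p = 0.042). In all 3 genes the obstructed and sham arrays did not overlap in either chamber, and the left groups lay closer to each other than the right groups.

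Among collagens, Col8a1, a short-chain collagen of vessel walls, was at 8.87 and 9.07 in PAC RV, against 6.87 and 6.99 in sham RV, and at 8.50 and 8.57 in TAC LV, against 7.70 and 7.46 in sham LV. All 4 obstructed arrays lay above all 4 sham arrays, with a change of 1.50 ± 0.19 (2.83-fold, adjusted p = 0.0142). The basement membrane chains Col4a1 and Col4a2 rose by 0.69 ± 0.10 and 0.64 ± 0.11, Col6a3 by 0.63 ± 0.12 and Col15a1 by 0.51 ± 0.10. The main fibrillar chains did not pass: Col1a1 differed by 0.94 ± 0.22 (adjusted p = 0.067), with 1.50 in RV and 0.38 in LV, and Col3a1 by 0.86 ± 0.25 (adjusted p = 0.098), with 1.53 in RV and 0.19 in LV. Both fibrillar genes were chosen here after their values were seen. Of 22 genes for enzymes and helpers that process collagen 0 passed, which at 1.11% of all genes does not set them apart. With group means on the 8 arrays 7 of them were higher, leaving out 1 array gave 0 to 3, the most without sham LV array 1, and in RV alone 9 passed and were higher, where 6.63% of all genes did. Loxl1, a collagen cross-linking oxidase, differed by 0.52 ± 0.12 (adjusted p = 0.0669).

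Other matrix genes that rose were Mfap5, a microfibril protein, by 1.37 ± 0.26, Thbs1, an activator of latent TGF-beta, by 1.14 ± 0.23, and Sparc, a collagen-binding protein, by 0.84 ± 0.11. The proteoglycans Aspn (1.40 ± 0.26), Vcan (1.12 ± 0.21), Bgn (1.01 ± 0.15) and Fmod (0.82 ± 0.16) rose too. Fibulin 3 (Efemp1) went the other way: it was at 7.45 and 7.82 in PAC RV, against 8.89 and 8.55 in sham RV, and at 7.88 and 8.03 in TAC LV, against 8.60 and 8.58 in sham LV. All 4 obstructed arrays lay below all 4 sham arrays, and the change was −0.86 ± 0.12 (adjusted p = 0.0193). Of 26 matrix protease and inhibitor genes 1 rose, Adamtsl2 (0.89 ± 0.13), which binds fibrillin microfibrils, and 1 fell, Timp4 (−0.61 ± 0.11), the metalloproteinase inhibitor most typical of heart. The shares of all genes were 0.767% upward and 0.346% downward. Leaving out 1 array gave 0 to 4 protease and inhibitor genes that were higher, the most without sham LV array 1, and 0 or 1 that was lower.

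Among 23 fibroblast markers, 2 rose and 1 fell, where 0.767% of all genes passed upward and 0.346% downward: the homeobox gene Meox1 (1.21 ± 0.17, adjusted p = 0.0187) and the protease gene Fap (0.51 ± 0.08, adjusted p = 0.0287) were higher, and the scavenger receptor gene Scara5 was lower (−0.55 ± 0.08, adjusted p = 0.0187). Leaving out 1 array gave 0 to 7 markers that were higher, 5 without TAC LV array 1, 7 without sham LV array 1 and 0 or 1 without any other. Meox1 was at 8.80 on both PAC RV arrays, against 7.05 and 7.21 in sham RV, and at 8.15 and 8.37 in TAC LV, against 7.44 and 7.60 in sham LV. The mean level of the 23 markers was 8.70 and 8.83 in PAC RV, against 8.30 and 8.26 in sham RV, and 8.44 and 8.50 in TAC LV, against 8.52 and 8.30 in sham LV. By this mean the left groups overlapped and the right groups did not. In a piece of tissue, more cells of a type and more RNA per cell cannot be told apart. The part of cell number in the matrix increases was not tested.

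In 3 lists of signalling genes, of TGF-beta and BMP, Wnt and growth factor genes, 1 or 2 members passed, all upward, where 0.767% of all genes did. Tgfb2, a TGF-beta ligand, was the single member of 43 TGF-beta and BMP genes that passed (0.51 ± 0.10, adjusted p = 0.046). The related Fstl1 (1.09 ± 0.22, adjusted p = 0.0509) and Tgfb3 (0.75 ± 0.18, adjusted p = 0.0669) did not. Frzb, a secreted Wnt antagonist, was the single member of 28 Wnt genes that passed, at 7.47 and 8.27 in PAC RV, against 6.04 and 6.03 in sham RV, and at 7.28 and 7.36 in TAC LV, against 6.75 and 6.47 in sham LV (1.28 ± 0.23, adjusted p = 0.0373). Of 22 genes of the insulin-like growth factor and imprinted growth network, 2 rose, the imprinted gene Mest (0.90 ± 0.11, adjusted p = 0.0105) and Igfbp7 (0.76 ± 0.12, adjusted p = 0.026). Mest was at 8.33 and 8.30 in PAC RV, against 7.08 and 7.21 in sham RV, and at 8.22 and 8.31 in TAC LV, against 7.56 and 7.70 in sham LV. The 4 obstructed arrays of Mest were close together, and the sham LV arrays lay above the sham RV arrays. Leaving out 1 array gave 0 to 4 higher TGF-beta and BMP genes, 0 to 2 Wnt genes and 0 to 2 of the growth network. On none of these 3 lists, Ctla2a, a cysteine protease inhibitor, rose by 1.15 ± 0.16, and Fibin, a secreted protein first described in fish fin buds, by 1.29 ± 0.25.

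The vascular lists held 0 or 1 passing member each, where 0.767% of all genes passed upward and 0.346% downward. Of 25 endothelial markers 0 passed in either direction, with a median of 0.20, made of 0.33 in RV and 0.04 in LV. The apelin receptor gene Aplnr differed by 0.63 ± 0.14 (adjusted p = 0.0593). Of 21 smooth muscle and pericyte markers 1 rose, Mcam, an adhesion molecule of vessel walls (0.58 ± 0.10, adjusted p = 0.0366). With group means on the 8 arrays 6 endothelial and 6 smooth muscle and pericyte markers were higher, and leaving out 1 array gave 0 to 1 and 0 to 2. Of 25 angiogenic factors 1 fell, Angpt1, the ligand of the endothelial receptor Tie2. It was at 8.69 and 9.15 in PAC RV, against 9.85 and 9.52 in sham RV, and at 8.92 and 8.62 in TAC LV, against 9.46 and 9.78 in sham LV. The change was −0.81 ± 0.13 (adjusted p = 0.0256), with −0.77 in RV and −0.85 in LV, and it passed in 3 of the 8 fits without 1 array.

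The decreases were fewer and smaller than the increases. Retnla, a secreted product of alternatively activated macrophages, was at 6.09 and 6.24 in PAC RV, against 7.26 and 7.46 in sham RV, and at 6.49 and 6.14 in TAC LV, against 8.17 and 7.07 in sham LV. Its obstructed arrays lay below all sham arrays, the 2 sham LV arrays were farther apart than the other 3 pairs, and the change was −1.25 ± 0.20 (0.421-fold, adjusted p = 0.0256). Inmt, an indolethylamine methyltransferase, was at 9.18 and 8.46 in PAC RV, against 10.36 and 9.81 in sham RV, and at 8.65 and 8.59 in TAC LV, against 9.66 and 9.57 in sham LV (−1.13 ± 0.16, 0.457-fold, adjusted p = 0.0188). Ccl11, which attracts eosinophils, was at 6.24 and 6.38 in PAC RV, against 7.19 and 7.11 in sham RV, and at 6.45 and 6.30 in TAC LV, against 6.99 and 7.01 in sham LV. All 4 obstructed arrays of Ccl11 lay below all 4 sham arrays, and the change was −0.73 ± 0.07 (adjusted p = 0.00823).

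The carboxylesterase gene Ces1d fell by 0.84 ± 0.15, the phosphorylase kinase subunit gene Phkg1 by 0.70 ± 0.10 and the iron exporter gene Slc40a1 by 0.69 ± 0.11. Penk, the enkephalin precursor, fell by 0.82 ± 0.14, Slit2, a guidance cue, by 0.56 ± 0.11, the peptidase gene Lvrn by 0.69 ± 0.11 and Tlcd4 by 0.65 ± 0.12. Of 29 genes for calcium handling and ion channels 2 fell and 0 rose, where 0.346% of all genes passed downward: Kcnj2, the channel of the inward rectifier current, by 0.39 ± 0.07, and the modulatory potassium channel subunit Kcnv2 by 0.59 ± 0.11. Of this list 4 genes were lower without TAC LV array 1 and 4 without sham LV array 1, and 0 passed in the other 6 fits without 1 array. Corin, the protease that activates atrial natriuretic peptide, was at 10.64 and 10.81 in PAC RV, against 11.38 and 11.20 in sham RV, and at 10.52 and 10.66 in TAC LV, against 11.09 and 11.10 in sham LV. All 4 obstructed arrays lay below all 4 sham arrays, and the change was −0.53 ± 0.07 (adjusted p = 0.0187). Hopx, a cardiac homeodomain protein, fell by 0.45 ± 0.07, Bckdhb, of branched-chain amino acid breakdown, by 0.41 ± 0.08, and Gstm1, a glutathione transferase, by 0.42 ± 0.06.

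Most fatty acid oxidation genes had negative differences, and none passed the shared test. Of 37 measured 0 passed, with 1.11% of all genes as background and a median of −0.18, made of −0.31 in RV and −0.11 in LV. In 30 of them the change was negative in both chambers. In RV alone 15 of them passed and were lower, where 5.62% of all genes did. The shared count was 7 lower with group means on the 8 arrays, 5 with a trended variance prior, 3 without genes below the median level and 0 to 3 without 1 array, the most without sham LV array 1. The fatty acid transporter gene Slc27a1 differed by −0.47 ± 0.10 (adjusted p = 0.0618) and Ech1, of unsaturated fatty acid breakdown, by −0.35 ± 0.09 (adjusted p = 0.0714). Of 58 respiratory chain and Krebs cycle genes 0 passed, with a median of −0.09. Of 21 adult sarcomere genes 0 passed, with a median of 0.00098, whose sign turned in 3 of the 8 fits without 1 array, and of 33 macrophage markers 0 passed, with 0.24 as median in RV and −0.03 in LV. The antigen presentation genes H2-Eb1 (−0.39 ± 0.09, adjusted p = 0.0608) and Cd74 (−0.41 ± 0.12, adjusted p = 0.0969) did not pass. At 1.11% of all genes, counts of 0 on lists of this size do not set them apart.

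**Figure D3:**
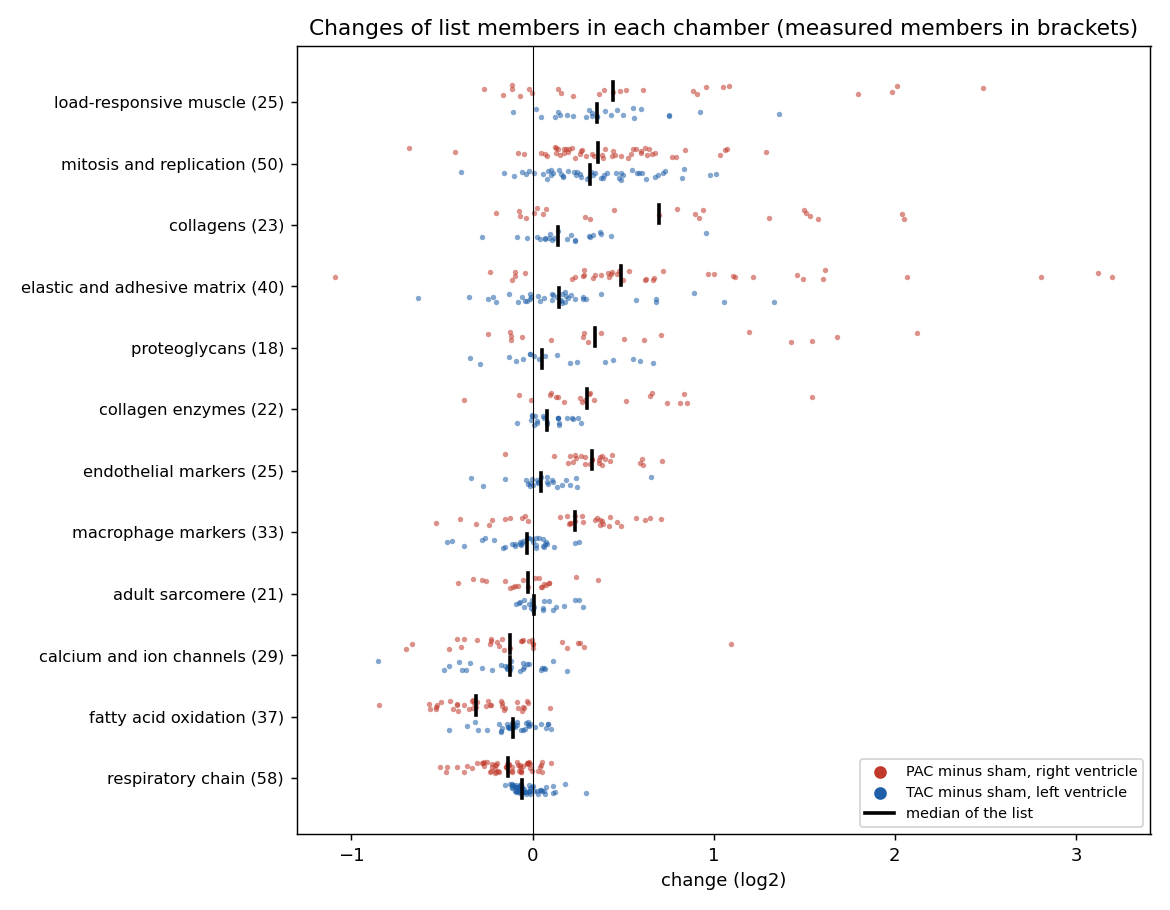
Change of every measured member of 12 gene lists, as the log2 difference PAC minus sham in RV (upper points of each row) and TAC minus sham in LV (lower points), with the median as a black bar. The medians of the 2 chambers lie close together for load-responsive muscle (0.44 and 0.36) and for mitosis and replication (0.36 and 0.32), and apart for collagens (0.70 and 0.14).

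For most of the 222 genes the change was larger in RV, though the difference passed after adjustment in 0 of them. The 222 were chosen in a fit where that difference counts as error, so genes with a large difference were less likely to be chosen. The count of 0 is partly set by that choice, as is the absence from the 222 of the 2 genes named below. Of the 153 genes that passed and were higher, 129 had the larger change in RV, and their median change was 0.70 in RV and 0.42 in LV. Of the 69 that were lower, 59 had the larger fall in RV (medians −0.52 in RV and −0.35 in LV). A direct test of the PAC change minus the TAC change passed in 2 of 19938 genes (0.01%), Emp1 and Itgbl1, neither of which is among the 222. At an unadjusted p under 0.05 the difference was present in 79 of the 222 and in 2977 of all genes (14.9%). The largest such differences among the 222 were in Postn (2.07 ± 0.33, adjusted p = 0.113), Thbs4 (1.91 ± 0.37, adjusted p = 0.163) and Cilp (1.86 ± 0.23, adjusted p = 0.0758). For Top2a it was 0.09 ± 0.16, for Corin −0.06 ± 0.14 and for Angpt1 0.09 ± 0.26, none of which passed, which does not show equal changes.

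Taken alone, the chambers gave unlike counts. PAC against sham RV passed in 2441 genes (12.2%), with 6.63% higher and 5.62% lower, and TAC against sham LV in 0 genes by limma (0%), with 1383 at an unadjusted p under 0.05 (6.94%) and 0.0671 as the smallest adjusted p. The left pair of groups was also the one with the smaller spread of changes over genes, with an SD of 0.14, against 0.28 on the right. Genes chosen in one chamber were then read in the other, which shared no arrays with it, although the variance of each gene was estimated from all 8. The 2 chambers may share sham hearts, which the labels do not state, so the readings may not be independent. The 100 genes with the highest moderated t in RV had a median change of 1.09 there and 0.31 in LV, and 99% of them were positive in LV, where 44.8% of all genes were. The 100 highest in LV had a median of 0.50 there and 0.61 in RV, with 93% positive, where 42% of all genes were. The 100 lowest in RV were at −0.61 there and −0.12 in LV, with 72% negative, against 55.2% of all genes, and the 100 lowest in LV were at −0.42 there and −0.26 in RV, with 85% negative, against 58%. Across all 19938 genes the changes of the 2 chambers correlated at r = 0.372 (Spearman 0.308), a description over genes that share arrays and are not independent.

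**Figure D4:**
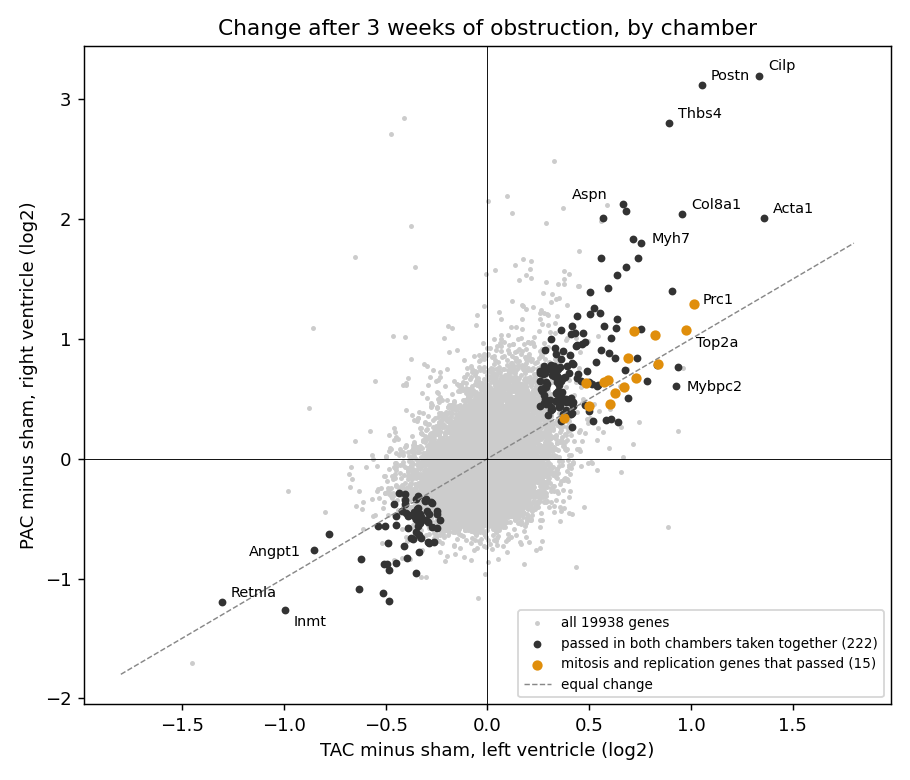
Change of each gene in LV (TAC minus sham, horizontal axis, log2) and in RV (PAC minus sham, vertical axis, log2) for all 19938 genes (grey), the 222 that passed with both chambers together (black) and the 15 mitosis and replication genes among them (orange); the dashed line marks equal change. Matrix genes such as Cilp (3.20 in RV and 1.33 in LV) lie well above the line, and mitotic genes such as Top2a (1.07 in RV and 0.98 in LV) lie near it.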

How the data were processed

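The authors deposited log2 expression values of 35556 probe sets, made with RMA in Affymetrix Power Tools per the submitters' processing notes. For the software version, library files and genome build, the sources used here give nothing. No further scaling was applied. Of the probe sets, 21789 carried 1 gene, 1621 several and 12146 were unlisted. For each of 19938 genes, of which 999 had several probe sets, the one highest on average across the 12 arrays was used. Probe sets with several genes or none listed gave 0 passes in limma (263 and 1205 at an unadjusted p under 0.05) and were not named.

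An additive model of chamber and obstruction was fitted to the 8 arrays with limma 3.58.1 in R 4.3.3 (lmFit, eBayes, 5 residual and 5.07 prior degrees of freedom) and adjusted over all 19938 genes. Chamber contrasts and the interaction used 1 mean per group. The script was tested on simulated data. The number of arrays limits the precision: the median standard error was 0.0806 for the shared change and 0.146 for the interaction.

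The genes and 38 lists (1003 genes, 926 measured, 4 through an older symbol, 26 on several lists) were chosen with earlier results of these data known. Named are up to 15 increases and 15 decreases, up to 6 members per list, 5 passing genes with the smallest interaction p and 5 load markers. Predicted models, olfactory receptors and small RNA genes are counted only. Alternatives were loess scaling, probe set means, a level filter, another variance prior, other array sets, blocks and leaving out arrays.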

Additional observations from a re-analysis of the deposited data

Results flagged for a closer look

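In groups of 4 arrays (the obstructed or the sham arrays of both chambers), 62 named genes gave 124 groups, and in 5 of them 1 array stood apart by Dixon's test, while chance gives about 1 in 20. Anln was at 4.81 on sham RV array 1, and between 5.35 and 5.41 on the other sham arrays. Cilp was at 7.06 on sham LV array 1, and between 6.60 and 6.67 on the others. Efemp1 was at 8.89 on sham RV array 1, and between 8.55 and 8.60 on the others. Kcnj2 was at 9.27 on sham RV array 1, and between 9.02 and 9.06 on the others. Phkg1 was at 7.56 on PAC RV array 1, and between 7.41 and 7.43 on the other obstructed arrays.

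The PAC change exceeded the TAC change by the interaction test in 2 genes. For Emp1, an epithelial membrane protein, the difference was 1.69 ± 0.12 (adjusted p = 0.00432): it was at 10.58 and 10.72 in PAC RV, against 8.67 and 8.68 in sham RV, and at 9.88 and 9.98 in TAC LV, against 9.65 and 9.64 in sham LV. For Itgbl1, an integrin-like secreted protein, it was 1.72 ± 0.15 (adjusted p = 0.00865), with 9.11 and 9.27 in PAC RV, against 7.14 and 7.05 in sham RV, and 8.52 and 8.70 in TAC LV, against 8.32 and 8.17 in sham LV. In both genes the difference was positive in both chambers, and neither passed the shared test (adjusted p = 0.0706 for Emp1 and 0.0651 for Itgbl1).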

How the results depend on the processing

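All 222 genes kept their direction wherever they were tested. Of the named genes, 62 were followed through the alternatives, nearly all of them genes that passed, and none of these turned round. Most named genes that did not pass were not followed. For the 222 a kept direction was fixed in advance where arrays were left out, since their groups did not overlap in either chamber. It was also fixed with the other variance prior, the level filter, group means, blocks and no chamber term. In this balanced design those settings leave the change of a gene as it was and alter only its error or the genes tested. Only loess scaling and probe set means could have turned a sign among the 222. Of the list medians printed, that of adult sarcomere genes (0.00098) changed sign, at −0.02 to 0.02 without 1 array. The count of 222 (153 higher, 69 lower) became 531 (337, 194) without genes below the median level, where 154 of the 222 remained in the test. It became 574 (348, 226) with a trended, robust variance prior, 115 (82, 33) with group means on all 12 arrays, 1214 (708, 506) with group means on the 8 arrays and 136 (101, 35) without chamber. It was 90 (64, 26) with a replicate block, with 83 of the 222 shared, although the labels state no pairing and deviations of same-numbered arrays correlated at −0.158 to 0.113 over the 6 pairs of groups. It was 596 (345, 251) with sham pieces of 1 number as 1 heart, and 7 (5, 2) without the 2 arrays high in atrial markers. Loess scaling gave 318 genes, of which 113 were lower. Without 1 array the count was 13 to 580 (11 to 359 higher, 1 to 221 lower). Over all alternatives, 404 of 1106 results for single named genes no longer passed and 0 reversed. At 2-fold, 20 became 9 with the trended prior, 9 with 12 arrays, 11 with a replicate block, 3 without the 2 arrays and 2 to 44 without 1 array. The 2 interaction genes became 28 with the level filter, 124 with the trended prior, 0 with 12 arrays, 5 without the 2 arrays and 0 to 99 without 1 array. PAC against sham RV (2441) gave 1148 with 12 arrays, 218 without the 2 arrays and 253 to 2687 without 1 array. TAC against sham LV (0) gave 10 with the level filter, 24 with the trended prior and 0 to 1 without 1 array. With the level filter the collagen median was 0.63 and the mitotic median 0.16, over 17 of 50 members. Without 1 array the collagen median was 0.40 to 0.55. Genes chosen lowest in RV read −0.22 in LV with 50 genes, −0.21 with loess and −0.18 with the level filter. Genes chosen highest in LV read 0.76 in RV with 50 genes and 0.48 with 200, and those lowest in LV read −0.28 with loess and −0.33 with the level filter. The cause of these shifts was not tested, and some of these fits also held fewer arrays or genes. Of the 222 genes 31 had a mean level below 5.70, the median of unlisted probe sets, where array signal limits the values.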

Other observations

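The remaining lists held 1 passing member each or 0, where 1.11% of all genes passed. Ier5, an immediate early gene, was the single one of 29 that passed, higher by 0.57 ± 0.09, and Masp1, a protease of the complement lectin pathway, the single one of 18, higher by 0.46 ± 0.07. Masp1 was at 7.29 and 7.49 in PAC RV, against 6.96 and 6.93 in sham RV, and at 7.62 and 7.57 in TAC LV, against 7.05 and 7.18 in sham LV. Among chemokines and cytokines (30), glycolysis (30), branched-chain amino acid, ketone and creatine metabolism (25), redox defence (28), renin-angiotensin and adrenergic signalling (28) and cardiac transcription factors (25), the single passing members were Ccl11, Phkg1, Bckdhb, Gstm1, Corin and Hopx, which were all lower. Of these 8 single members Ccl11 passed in all 8 fits without 1 array, Ier5, Phkg1, Gstm1 and Corin in 4, Masp1 in 3, and Bckdhb and Hopx in 2. In lists for lymphoid cells and granulocytes (23), protein folding and turnover (32), ribosomal proteins (31), clock genes (18), epicardium (14), adipocytes (10), Schwann cells and neurons (9), erythroid cells (2), lung and thymus (9) and skeletal muscle (10), 0 members passed in limma.

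The 4 PAC RV arrays of other times were outside the tests. The mean level of the 50 mitotic genes was 6.97 and 7.53 at 1 week, 6.76 and 6.61 at 3 weeks and 6.53 and 6.45 at 6 weeks, against 6.29 and 6.31 in sham RV of 3 weeks. Top2a was at 7.85 and 8.81 at 1 week and at 6.64 and 6.37 at 6 weeks of PAC. Cilp was at 7.74 and 9.82 at 1 week and at 9.62 and 11.10 at 6 weeks. The mice were 13 weeks old at 1 week and 18 weeks old at 6 weeks, so time and age cannot be told apart.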
